A study of Salmo salar with 30 samples.

Results

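A set of 81 microarray probes, of 14841 non-control probes on the array, was brighter in the distal intestine of Atlantic salmon fed soybean meal than in fish fed the control diet, and stayed about as bright when either of 2 packages of functional ingredients was added to the soybean meal. The members were chosen by their measured values in 4 diets, in 4 steps. A probe had to be well above background on all 30 arrays, which held for 11484 probes. Its mean log2 level in soybean meal fish had to exceed that in control fish by more than 1 (377 probes), with each soybean meal fish above each control fish (207 probes). Lastly, its difference from control had to be at least 75% of the soybean meal difference both with package 1 and with package 2, which left 81. Of the 126 probes left out at the last step, 46 met it with package 1 alone, 20 with package 2 alone and 60 with neither.

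Levels are log2 intensities of the scanner's processed signal minus the 75th percentile of the same array, so a level of 0 is that percentile and a difference of 1 is a 2-fold difference. Since soybean meal + P1, soybean meal + P2, soybean meal and control entered the choice, differences among these diets are descriptions of the chosen probes and carry no test. Comparisons of corn gluten diets with control share the control fish and are given in the same way. The fish of corn gluten + P2 and corn gluten entered the choice only through detection on all arrays, so corn gluten + P2 against corn gluten was tested.

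RNA of the distal intestine, the hindmost segment of the gut, was measured in 6 diets with 5 fish and 5 arrays each. In soybean meal + P1 the feed carried arginine at 1.5% and butyrate at 0.01%, and in soybean meal + P2 it carried nucleotides at 0.05%, butyrate at 0.01% and β-glucan at 0.1%. Fish of the soybean meal diet received neither package, corn gluten was fed with P2 (corn gluten + P2) and without it (corn gluten), and the control diet had a high level of fish meal. For both corn gluten diets the deposited file names carry the word pea, which is absent from the labels. All fish were kept at 11.2 °C for 67 days, starting from 177 g. The 18 tanks of the trial are named without the tank of each fish, so tank could not enter the fit, and p-values understate the error if tank-mates were alike.

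Salmon fed soybean meal are known to develop an enteritis of this segment: the mucosal folds shorten, the lamina propria widens and fills with leucocytes, and the enterocytes lose their absorptive vacuoles. Butyrate is a short-chain fatty acid of microbial fermentation that intestinal epithelium can use as fuel, and arginine is a precursor of nitric oxide and polyamines. β-Glucans are cell wall polysaccharides recognised by leucocytes, and nucleotides are building blocks of RNA and DNA that dividing cells draw on. In whole tissue, more cells of a type and more RNA per cell cannot be told apart.

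The files do not pair probes with genes, and 0 of the 14841 identifiers matched the 65341 genes of the reference table, so members are given by identifier only and markers of intestinal, immune or other cell types could not be checked. Of the members, 74 (91.4%) had identifiers starting with Ssa# and 7 (8.64%) with Omy#, against 92.2% and 7.76% of the 11484 detected probes. Their level in control fish had a median of -1.49, with a range of -6.16 to 5.38, and the median over all detected probes was also -1.49. Between 12491 and 13376 probes per array were well above background, and 0 spots were saturated.

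Over the 81 members, the median difference from control was 1.44 with soybean meal + P1 (range 0.86 to 6.67), 1.39 with soybean meal + P2 (0.77 to 7.11) and 1.37 with soybean meal (1.00 to 6.91). It was 0.22 with corn gluten + P2 (-0.51 to 2.52) and 0.14 with corn gluten (-0.61 to 1.83). The medians over all 11484 detected probes lay between -0.04 and 0.0028 in these 5 comparisons. A difference above 2 was seen for 13 members with soybean meal + P1, 16 with soybean meal + P2, 19 with soybean meal, 2 with corn gluten + P2 and 0 with corn gluten. In corn gluten + P2, 67 of 81 members (82.7%) had a mean above control, against 50.6% of all detected probes, and in corn gluten it was 55 (67.9%) against 45.7%. These shares are descriptions only, since the rule chose members partly for low levels in the same control fish. The 126 soybean-raised probes that lay below the 75% line with either package or both had similar medians in these diets, 0.18 with corn gluten + P2 and 0.16 with corn gluten. With normexp background correction the members' medians were 0.041 with corn gluten + P2 and -0.05 with corn gluten.

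The median over the members, set to the mean of the control fish, was 1.64, 1.63, 1.39, 0.82 and 1.73 in soybean meal + P1 fish 1 to 5. It was 1.60, 1.53, 0.93, 1.25 and 1.68 in soybean meal + P2 fish and 1.31, 1.43, 1.56, 1.27 and 1.50 in soybean meal fish. The 3 soybean meal diets overlapped each other, and the lowest values belonged to fish 4 of soybean meal + P1 and fish 3 of soybean meal + P2. The values were 0.26, 0.45, 0.07, 0.19 and 0.28 in corn gluten + P2 fish, 0.31, 0.42, 0.08, -0.02 and -0.11 in corn gluten fish, and 0.07, -0.11, 0.13, -0.09 and -0.12 in control fish. Each of the 15 soybean-fed fish was above each of the other 15. Diet means of these medians were 1.44 ± 0.37, 1.40 ± 0.31, 1.42 ± 0.13, 0.25 ± 0.14, 0.14 ± 0.22 and -0.02 ± 0.11 (SD, n = 5 fish) in soybean meal + P1, soybean meal + P2, soybean meal, corn gluten + P2, corn gluten and control. For comparison, the median over all detected probes ranged from -0.10 to 0.06 among the 30 fish.

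Single members separated the diets in the same direction. In soybean meal + P1, 66 members had each fish above each control fish, where 10.9% of detected probes did. In soybean meal + P2 it was 68, where 6.02% of detected probes did, and in soybean meal it was all 81 by the rule, where 7.14% did. Across all 3 diets, 59 members had the 15 soybean-fed fish above the 5 control fish (2.77% of detected probes), and 34 had them above all 15 other fish (1.11%). Soybean meal fish lay wholly above corn gluten fish for 73 members (6.89%). The count was 54 for soybean meal + P1 over corn gluten (10.9%) and 56 for soybean meal + P2 over corn gluten + P2 (7.12%). These counts describe probes chosen on the soybean-fed fish, and nothing is read from their distance to the background.

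The 2 probes with the largest difference from control were the same ones in the 3 soybean meal diets. Ssa#S47729315 had levels of 2.79, 3.50, 2.24, 0.71 and 2.16 in soybean meal + P1, 1.65, 3.10, 2.08, 2.56 and 4.22 in soybean meal + P2, and 1.81, 3.04, 2.60, 2.37 and 2.80 in soybean meal. It had -4.13, -3.55, -4.07, -3.76 and -4.06 in corn gluten + P2, -4.07, -2.44, -3.93, -4.18 and -4.45 in corn gluten, and -4.43, -4.12, -4.03, -4.70 and -4.65 in control. All 15 soybean-fed fish were far above the 15 others, with no overlap. The mean differences from control were 6.67 with soybean meal + P1, 7.11 with soybean meal + P2 and 6.91 with soybean meal, or 102-fold, 138-fold and 120-fold. Corn gluten + P2 differed from control by 0.47 and corn gluten by 0.57, and in corn gluten that value rested in part on fish 2. With normexp background correction the differences were 4.92, 5.37 and 5.14 in soybean meal + P1, soybean meal + P2 and soybean meal. The probe was dim in control, at a mean level of -4.39 against a lower quartile of -3.48 over all detected probes. The fold values above hold for the main processing only.

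Ssa#GRASP221219529 had levels of -1.77, -1.24, -1.56, -2.65 and -0.92 in soybean meal + P1, -0.33, -1.39, -2.30, -1.25 and -0.28 in soybean meal + P2, and -1.47, -1.29, -0.86, -1.32 and -0.98 in soybean meal. The levels were -4.02, -4.73, -4.44, -4.32 and -4.33 in corn gluten + P2, -3.55, -4.64, -5.12, -5.86 and -5.13 in corn gluten, and -5.67, -5.51, -4.37, -5.10 and -5.89 in control. Soybean-fed fish again did not overlap with the rest. Its differences from control were 3.68, 4.19 and 4.12 with soybean meal + P1, soybean meal + P2 and soybean meal, and 1.54, 1.95 and 1.93 after normexp. This probe too was dim in control, at a mean level of -5.31.

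At the other end were members that only just met the rule. Ssa#EG872385 had a soybean meal difference of 1.00, with levels of -3.65 to -3.09 in soybean meal + P1, -3.65 to -3.14 in soybean meal + P2, -3.60 to -3.03 in soybean meal and -4.59 to -3.76 in control. After normexp its difference was 0.07 with soybean meal + P1 and 0.26 with soybean meal, so this dim member did not meet the rule under that correction. Ssa#GRASP209733501 had a soybean meal difference of 1.01, and the nearest probes outside, Ssa#GRASP223648549 and Ssa#CA043049, had 0.9996 and 0.995. The smallest difference with soybean meal + P1 was 0.86, for Ssa#GRASP209154541, with levels of 3.92 to 4.36 in soybean meal + P1 and 2.68 to 3.72 in control. The smallest with soybean meal + P2 was 0.77, for Ssa#S30271866, which had -3.48 to -2.85 in soybean meal + P2 and -4.24 to -3.21 in control.

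The share of the soybean meal difference that remained had a median of 96.0% with P1 (range 77.9% to 132%) and 92.7% with P2 (75.7% to 152%). In the 126 soybean-raised probes that did not meet the 75% rule, the medians were 65.4% with P1 and 58.4% with P2. The rule fixes the lower end: the members nearest to it kept 77.9% and 78.0% with P1 and 75.7% and 76.1% with P2. The nearest probes outside kept 74.4% and 72.4% with P1 and 74.9% and 74.4% with P2. The rule sets no upper bound, but it chose probes on a high soybean meal mean, so differences from soybean meal are not free of the choice. With soybean meal + P1, 34 members (42.0%) were higher than with soybean meal alone, against 58.5% of detected probes. With soybean meal + P2 it was 29 (35.8%) against 54.6%, and 13 members were higher with both and 31 with neither. The members' median difference from soybean meal alone was -0.06 with P1 (-0.53 to 0.50) and -0.11 with P2 (-0.55 to 0.78). Over all detected probes the medians were 0.04 with P1 and 0.03 with P2. For 0 of 81 members did the 5 fish of a package diet lie wholly above or wholly below the soybean meal fish. Among detected probes, 0.792% lay wholly above and 0.749% wholly below with P1, and 3.65% wholly above and 1.14% wholly below with P2.

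In the members that departed most from soybean meal alone, the fish of both diets still overlapped. With P1, Ssa#S35667830 was 0.50 higher, with levels of -1.61, -0.15, -0.88, -2.01 and -0.85 in soybean meal + P1 and -1.62, -1.41, -1.59, -1.36 and -2.04 in soybean meal. Ssa#CX357729 was 0.46 higher with P1, and the diets overlapped here too. The lowest with P1 was Omy#S22610346, with a difference of -0.53 and levels of -1.34, -0.92, -1.27, -3.28 and -1.33 in soybean meal + P1 against -0.75, -1.12, -1.74, -1.12 and -0.78 in soybean meal. Fish 4 stood far below its diet, and without it the difference was -0.11. Ssa#GRASP209737887 had a P1 difference of -0.49 that was 0.01 without fish 4, whose level of 0.36 compared with 2.49 to 3.19 in the other fish of soybean meal + P1 and 2.56 to 3.06 in soybean meal.

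With P2 the highest departures were those of Ssa#S50689380 (0.78) and Ssa#S18890029 (0.75). Ssa#S18890029 had -0.57, -0.41, -0.62, -0.90 and 0.84 in soybean meal + P2 and -1.17, -1.21, -1.49, -1.12 and -0.40 in soybean meal, with overlap at 1 soybean meal fish, and the difference was 0.45 without fish 5 of soybean meal + P2. The lowest was Ssa#S31991813, with a difference of -0.55. Its levels were -0.88, -0.88, -0.95, -0.78 and -0.56 in soybean meal + P2 and -0.69, 0.02, 0.11, -0.57 and -0.20 in soybean meal, so the ranges met between -0.69 and -0.56. With the slide as a block its difference was -0.84. Ssa#S35585700 was next, at -0.46.

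The packages differed from each other by a median of 0.02 over the members (P1 minus P2, range -1.02 to 0.84). In 2 members the soybean meal + P1 fish lay wholly above the soybean meal + P2 fish, where 2.66% of detected probes did, and in 0 members wholly below (2.08%). One was Ssa#S30271866, with -2.78 to -2.51 in soybean meal + P1 and -3.48 to -2.85 in soybean meal + P2. The other, Ssa#GRASP209736639, was picked out after its values were seen and had -1.35 to -1.12 in soybean meal + P1 and -1.85 to -1.45 in soybean meal + P2.

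The members' median SD between the 5 fish of a diet was 0.45 in soybean meal + P1, 0.45 in soybean meal + P2, 0.27 in soybean meal, 0.30 in corn gluten + P2, 0.37 in corn gluten and 0.35 in control, against 0.22 to 0.25 over all detected probes. The rule asked each soybean meal fish to lie above each control fish, which favours probes with little spread in soybean meal. It set no such condition on the package diets. The lower SD in soybean meal can thus follow in part from the choice and carries no test. Fish 4 of soybean meal + P1 was the lowest of its diet for 68 of 81 members (84.0%), and also for 102 of the 126 other soybean-raised probes (81.0%), against 23.6% of all detected probes. That array had 12901 probes well above background, inside the range of the others, and what set the fish apart was not tested. Without it the SD in soybean meal + P1 was 0.25 and the median difference from control 1.56. Fish 3 of soybean meal + P2 was the lowest of its diet for 46 members (56.8%), against 24.6% of the other soybean-raised probes and 19.9% of all detected probes. Without it the SD in soybean meal + P2 was 0.38 and the median difference 1.47. Both fish were picked for their low values over these members, so the shifts without them follow in part from that choice.

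Within diets, members tended to move together from fish to fish, less so without the fish farthest from their diets. Over the 30 fish, after each diet's mean was taken out, the median correlation over the 3240 pairs of members was 0.32, and 86.8% of pairs were above 0. Over all pairs of detected probes the median was 0.01, with 51.1% above 0. Without fish 4 of soybean meal + P1 and fish 3 of soybean meal + P2 the members' median was 0.17, with 74.1% above 0. No matching values were computed for all detected probes without these fish, or for the other soybean-raised probes. All points share the array's scaling and the fish, and the correlations carry no test.

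In 13 pairs, which held 21 members, Pearson's r was above 0.85. They are described after their values were seen. The most alike were Ssa#S18880387 and Ssa#S35585700, with r = 0.970 and Spearman's rho = 0.945. Without the 2 fish that deviated most in Ssa#S18880387, r was 0.962. Those 2 fish were picked on that probe alone, not over all members as in the paragraph above. A trio of Ssa#DN140424, Ssa#DW555078 and Omy#S15260542 had r = 0.958, 0.951 and 0.936. Ssa#GRASP209155489 and Ssa#S47625103 had r = 0.942, and Ssa#GRASP209737887 had r = 0.933 with Ssa#GRASP209736843 and r = 0.931 with Ssa#S30291305. Whether probes of such a pair read the same transcript is not given in the sources used here, so 81 probes need not be 81 genes.

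A few members were also higher in the corn gluten diets. Corn gluten + P2 fish lay wholly above control fish for 5 members, where 0.914% of detected probes did, and corn gluten fish for 1 member, where 0.418% did. For 0 members did they lie wholly below control fish, where 0.993% of detected probes did with corn gluten + P2 and 0.479% with corn gluten. The rule chose members partly for low levels in these same control fish, so nothing is read from the distance of these counts to the background. The 5 members were Ssa#S50689380, Ssa#S30239290, Ssa#GRASP209736843, Ssa#GRASP209737887 and Omy#S18535454, of which only Ssa#S50689380 separated corn gluten from control. Ssa#S50689380 had levels of -0.40, -0.74, -0.31, 0.66 and -0.30 in soybean meal + P1, -0.24, 0.91, 1.00, 0.15 and 0.39 in soybean meal + P2, and -1.15, 0.09, -0.48, -0.36 and 0.20 in soybean meal. It had 0.18, 0.20, 1.24, 0.77 and 0.96 in corn gluten + P2, 0.82, -0.67, 0.35, -0.78 and 0.21 in corn gluten, and -1.49, -2.08, -2.06, -1.65 and -1.97 in control. All 25 fish on plant protein were above all 5 control fish. Its differences from control were 1.63, 2.29 and 1.51 with soybean meal + P1, soybean meal + P2 and soybean meal, 2.52 with corn gluten + P2 and 1.83 with corn gluten.

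Omy#S18535454 had levels of 4.34 to 5.61 in soybean meal + P1, 4.50 to 5.68 in soybean meal + P2, 4.85 to 5.48 in soybean meal, 3.34 to 3.98 in corn gluten + P2, 2.44 to 3.50 in corn gluten and 1.84 to 3.14 in control. Its differences from control were 2.35, 2.42 and 2.46 in the soybean meal diets with P1, with P2 and without a package, and 1.02 with corn gluten + P2 and 0.40 with corn gluten, which left the corn gluten + P2 fish between control and the soybean-fed fish. Ssa#GRASP209737887 had 0.36 to 3.19 in soybean meal + P1, 1.97 to 3.77 in soybean meal + P2 and 2.56 to 3.06 in soybean meal. It had 1.48 to 2.23 in corn gluten + P2, 0.20 to 2.00 in corn gluten and 0.22 to 0.84 in control. Its corn gluten + P2 fish overlapped soybean meal + P1 only at fish 4 (0.36) and soybean meal + P2 only at fish 4 (1.97). Its differences from control were 1.14 with corn gluten + P2 and 0.39 with corn gluten. Ssa#GRASP209736843 had smaller ones, 0.32 and 0.23. Omy#S18535454, Ssa#GRASP209736843 and Ssa#GRASP209737887 are described here after their values were seen.

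Omy#S15260542 had the next highest corn gluten difference, 0.85, with levels of -0.79, -0.25, -0.47, -1.99 and -0.67 in corn gluten and -1.33, -2.09, -2.26, -1.43 and -1.30 in control, where corn gluten fish 4 overlapped the control fish. The lowest members against control were Ssa#CX357729 (-0.51) and Ssa#GRASP209154541 (-0.37) with corn gluten + P2, and Ssa#S35523686 (-0.61) and Ssa#GRASP223648255 (-0.60) with corn gluten. In all 4 the fish of the corn gluten diet and of control overlapped.

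Corn gluten + P2 was tested against corn gluten in a limma fit of all 30 arrays and 13577 probes. No slide held fish of both diets, so they were not compared directly within a slide. With the slide as a block they were linked only through other diets. Soybean meal, for example, shared slide 5 with corn gluten + P2 and slide 4 with corn gluten. At an adjusted p of 0.05, 0 of 81 members and 0 of the 13577 probes passed (0%), with smallest adjusted p-values of 0.327 among the members and 0.229 among all probes. At an unadjusted p below 0.05, 5 members were higher and 1 was lower, where 4.86% of all probes were higher and 2.71% lower, 1028 probes together. The members' median difference was 0.13, with 57 of 81 above 0 (70.4%), against 0.02 and 53.1% over all probes tested. It was 0.04 without corn gluten fish 5 and 0.07 with the slide as a block, and the number of members above 0 was 48 to 63 over all the settings tried. Since members tended to move together from fish to fish, they are not 81 separate readings, and these shares carry no test. In 0 members did the corn gluten + P2 fish lie wholly above the corn gluten fish (0.74% of detected probes) or wholly below them (0.566%).

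Ssa#S30239290 had the largest member difference in this comparison. Its levels were 3.26, 1.32, 1.93, 1.81 and 2.18 in corn gluten + P2 and 1.38, -0.40, -0.13, -0.75 and 0.40 in corn gluten, so only corn gluten fish 1 overlapped. The difference was 2.00 ± 0.43 (SE), with an adjusted p of 0.327 in limma, which ranged from 0.0554 without corn gluten fish 1 to 0.908 with the slide as a block. In the other diets it had 1.21, 1.94, 1.13, 0.62 and 2.79 in soybean meal + P1, 2.46, 3.15, 1.74, 1.84 and 2.95 in soybean meal + P2, 2.07, 2.10, 2.06, 0.88 and 2.10 in soybean meal, and -0.61, -0.58, -0.19, 0.66 and -0.60 in control. Against control, the means were 1.80 higher with soybean meal + P1, 2.69 with soybean meal + P2, 2.11 with soybean meal, 2.36 with corn gluten + P2 and 0.36 with corn gluten.

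The other 4 members that were higher at an unadjusted p below 0.05 were picked out after their values were seen. Ssa#S50689380 differed by 0.69 ± 0.32 (SE, adjusted p = 0.628 in limma) and Omy#S18535454 by 0.62 ± 0.27 (adjusted p = 0.61). Ssa#GRASP223647593 differed by 0.46 ± 0.20 (adjusted p = 0.611, on 29 arrays since 1 spot was an outlier) and Ssa#S31976899 by 0.39 ± 0.19 (adjusted p = 0.653). In each of them the fish of both diets overlapped.

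Ssa#GRASP223648255 had the second-ranked difference, 1.10 ± 0.85 (SE, adjusted p = 0.804 in limma), and it rested largely on fish 4 of corn gluten + P2. That fish had a level of 0.16, against -3.96 to -2.71 in the other 4 and -5.38 to -2.53 in corn gluten, and without it the difference was 0.38. This member was also spread widely in soybean meal + P1, with levels of 1.27, 2.11, -1.30, -2.69 and -0.11. The lowest differences were those of Ssa#S30271866, the 1 lower member at an unadjusted p below 0.05, with -0.41 ± 0.19 (adjusted p = 0.625 in limma), and Ssa#S48405112, -0.39 ± 0.37 (adjusted p = 0.842).

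The 30 arrays lay on 6 slides, and soybean meal and control shared none, so this contrast has no direct value within a slide. With the slide as a block in the fit, the member median difference from control was 1.59 with soybean meal, 1.48 with soybean meal + P1 and 1.39 with soybean meal + P2. Both package medians then lay below that of soybean meal. Without the block they were 1.44 and 1.39, against 1.37 with soybean meal. Of the 81 members, 61 still met the rule with the block. Corn gluten + P2 and corn gluten shared no slide either, so the tested contrast also has no direct value within a slide. Where diets shared a slide, soybean meal + P2 exceeded control by a member median of 1.54 on slide 2 (2 fish each) and 1.87 on slide 6 (1 fish each), and soybean meal + P1 exceeded control by 1.61 on slide 6 (2 fish against 1). Soybean meal exceeded corn gluten by 1.25 on slide 4 (1 fish against 3) and corn gluten + P2 by 1.11 on slide 5 (2 against 3). Soybean meal + P1 differed from soybean meal by a member median of -0.32 on slide 3 (2 fish each, fish 4 among them) and 0.24 on slide 5 (1 against 2), so its direction was not the same on both slides. Soybean meal + P2 shared only slide 4 with soybean meal (2 against 1, fish 3 among them), with a median of -0.40. Beside diet, slide reached an unadjusted p below 0.05 for 5 members (6.17%) and for 7.53% of all probes, and an adjusted p below 0.05 for 0 of the 13577 probes.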

How the data were processed

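One-colour Agilent arrays were hybridised with Cy3-labelled RNA, 1 array per fish. Per the file headers, spots were quantified with Feature Extraction 12.0.1.1, and the deposited processed signal is an intensity, background-subtracted within the array and not scaled between arrays. The background and outlier flags are other values of the deposited files. The authors' deposited value table holds intensities scaled by 1 factor per array and rounded to whole numbers, with 14191 cells blank; it served as an alternative.

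Levels were computed as log2 processed signal minus the 75th percentile of the 14841 non-control probes on the same array. The fit used limma 3.58.1 in R 4.3.3 with 1 coefficient per diet on 30 arrays and eBayes without trend. It covered the 13577 probes well above background on at least 5 arrays, which all 81 members were, with Benjamini-Hochberg adjustment. Outlier spots (598 over all arrays, 7 of them in 3 members) were missing in the fit and kept in the descriptive values. The number of arrays limits the precision. Normexp (offset 50) used the median signal, since the mean signal is not in the files used here.

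Labels name separate fish. Members, lists and comparisons were chosen with earlier results of these data known. Named probes are at most 2 with the highest and 2 with the lowest value per comparison, or are said to be chosen after their values were seen. The planned gene lists could not be used, since the probes carry no gene names here. Alternatives were normexp, median and quantile scaling, the value table, other thresholds, slide and fish number as blocks, single fish left out, no filter, a fit of only 2 diets and an intensity trend. Equal fish numbers in corn gluten + P2 and corn gluten did not pair the fish.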

Additional observations from a re-analysis of the deposited data

Results flagged for a closer look

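Of 120 sets of 5 fish (19 named members and the member median in 6 diets), 8 held a fish farther from the others than a Dixon test at its 95% level allows. Chance gives about 1 in 20 in independent sets picked without regard to their values. Most named members were picked for extreme differences, and the sets reuse the same fish, so that rate is only a rough guide here. In 5 of the 8 it was fish 4 of soybean meal + P1, lowest in each. Its level was -1.14 for Omy#S15260542 (0.45 to 0.66 in the other 4 fish), -3.28 for Omy#S22610346 (-1.34 to -0.92), 0.36 for Ssa#GRASP209737887 (2.49 to 3.19), -2.79 for Ssa#S18890029 (-1.26 to -0.77) and -1.63 for Ssa#S31991813 (-0.26 to 0.21). Fish 5 of soybean meal + P2 was high for Ssa#S18890029, at 0.84 (-0.90 to -0.41 in the others). Soybean meal fish 4 was low for Ssa#S30239290, at 0.88 (2.06 to 2.10). Corn gluten fish 2 was high for Ssa#S47729315, at -2.44 (-4.45 to -3.93).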

How the results depend on the processing

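The number of members was 50 with normexp, 52 at a retained share of 0.85, 154 at a soybean meal difference above 0.75 and 34 above 1.5. Of the 81, 46 remained with normexp, 61 with the slide as a block, 77 to 80 with the other scalings and the value table, and 39 under all 5. Leaving out 1 fish gave 73 to 105 members. The 35 members lost with normexp were dim, with a median control signal of 49.8 against 585 in the 46 kept. The soybean meal median was 1.10 with normexp and 1.59 with the slide as a block. The medians under these settings were 1.12 and 1.48 with soybean meal + P1, and 1.15 and 1.39 with soybean meal + P2. The corn gluten + P2 median was 0.041 and the corn gluten median -0.05 with normexp. With 1 fish left out, median differences from control were 1.38 to 1.56 (soybean meal + P1), 1.33 to 1.47 (soybean meal + P2), 1.34 to 1.43 (soybean meal), 0.18 to 0.29 (corn gluten + P2) and 0.07 to 0.20 (corn gluten). Corn gluten + P2 against corn gluten gave 1 probe, no member, past the threshold in a fit of only both diets and 1 without corn gluten + P2 fish 4, with 0 to 1 when 1 fish was left out, and a member median of 0.04 to 0.18. With the fish number as a replicate block it gave 0 probes, 1102 at an unadjusted p below 0.05, and a member median of 0.13. Deviations of equally numbered fish correlated between -0.40 and 0.21 over 13577 probes, 2 of 5 above 0.1, so the pairing rests on a number alone. Member counts at other thresholds follow from the thresholds themselves. Leaving out a soybean meal or control fish also eases the condition that each soybean meal fish lies above each control fish. The cause of the other shifts was not tested.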
